A study of Mus musculus with 8 samples.

Results

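The genes described here are the interferon-linked PARP family of the mouse. They are Parp9, Parp10, Parp11, Parp12, Parp14, Zc3hav1 (also called Parp13 or ZAP) and Dtx3l, with Parp1 beside them as a PARP gene that is not thought of as interferon-inducible. These 8 genes were picked by name, at a time when earlier results of these data were known. All 8 were found among the 52636 genes of the deposited table, and all 8 passed the filter on low counts that left 17378 genes to test. RNAseq was done on S0 cells, the CD71-negative and Ter119-negative fraction left after lineage-positive cells were gated out of E12.5 fetal livers. There were 4 libraries labelled wild type (WT) and 4 labelled DKO, the double knockout of Vps13a and Vps13c, which encode bridge-like lipid transfer proteins. The mice were kept on a C57BL/6J background. DKO embryos came from crosses of Vps13a+/- Vps13c-/- parents and carry a Vps13a allele with a deleted exon together with the Vps13c-/- genotype throughout the body. The study describes the sorted livers, WT included, as coming from such crosses, which cannot give embryos wild type for Vps13c, so the parents of the WT embryos are unclear. The library totals were 42114489 to 50886469 counts in WT and 36981439 to 42587815 in DKO. The labels number the libraries but do not state that each came from a separate embryo, so p-values measure the spread between these libraries.

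PARP enzymes use NAD+ to attach ADP-ribose to proteins or nucleic acids. PARP1 builds long chains at DNA breaks and is abundant in dividing cells. PARP10, PARP11, PARP12 and PARP14 attach single ADP-ribose units, whereas ZAP has lost the enzymatic activity and acts by binding CpG-rich viral RNA through zinc fingers. PARP9 and the ubiquitin ligase DTX3L form a complex, and their genes lie head to head. In many cell types these genes are switched on by interferon through STAT and IRF factors that bind short promoter elements.

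Promoter windows from RefSeq (GRCm38.p6, 250 bases before each listed start) were available for 5 of the 8 members, in 6 windows. They were searched on both strands for GAAA followed after any 2 bases by a further GAAA, a core of the interferon-stimulated response element, and for TTCNNNGAA, the core to which STAT dimers bind. The first motif was present in 2.98% and the second in 7.02% of all 32851 windows of this length. Among the members, only the distal of the 2 Parp11 windows held either motif, and it held both. The Dtx3l, Parp12, Zc3hav1 and Parp1 windows held neither. The Parp11 window is shown because Parp11 was the interferon-linked member that fell in DKO, and the Parp12 window because Parp12 rose most. The Dtx3l stretch, upstream of its start and inside the Parp9 locus, is shown for the head-to-head pair. Stretches inside annotated exons were left out. Capitals mark the Parp11 motifs, which overlap by 3 bases and begin 44 and 37 bases before the start (on the opposite strand for the first).
Parp11, plus strand, chr6:127446590-127446839: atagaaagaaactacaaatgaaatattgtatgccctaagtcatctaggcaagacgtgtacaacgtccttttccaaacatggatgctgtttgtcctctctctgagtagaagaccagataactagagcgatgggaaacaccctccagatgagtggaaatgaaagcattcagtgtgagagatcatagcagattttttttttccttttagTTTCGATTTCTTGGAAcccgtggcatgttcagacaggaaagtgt
Parp12, minus strand, chr6:39118350-39118472: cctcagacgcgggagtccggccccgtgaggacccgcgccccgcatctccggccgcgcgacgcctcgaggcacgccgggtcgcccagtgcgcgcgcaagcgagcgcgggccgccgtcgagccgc
Dtx3l, minus strand, chr16:35939207-35939277: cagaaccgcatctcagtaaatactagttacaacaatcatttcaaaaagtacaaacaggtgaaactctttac
A missing motif says only that these letters are not in the window.

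Several features of the libraries bear on every comparison. Vps13a had 1825 to 2109 normalized counts (counts scaled to a common library size) in WT, against 607 to 1039 in DKO, and so was lower in every DKO library. Vps13c, which the label gives as knocked out, was not lower in DKO, with 504 to 664 normalized counts in WT and 518 to 1088 in DKO (log2 fold change 0.49, adjusted p = 0.182 by edgeR). Whether its reads come from outside the altered sequence was not tested. Xist was at 18029 or above in DKO replicates 1, 2 and 4 and at most 62.3 in the other 5 libraries, and Ddx3y on the Y chromosome was high in WT and in DKO replicate 3 only. Sex therefore moved with genotype except in DKO replicate 3, whose values are given beside each member. Of 10 erythroid genes listed, all were tested, Gata1 and Klf1 were abundant in every library, and the list summed to 1200 to 2160 CPM (counts scaled to a common library total) in WT and 898 to 2390 in DKO. The S0 libraries also held RNA of other cell types. Hepatoblast genes summed to 11400 to 15800 CPM in WT and 3680 to 13600 in DKO, with 0 of 10 past an adjusted p of 0.05. At that threshold, 10.8% of all genes tested fell and 10.7% rose. Still, 5 of the 10 were lower in every DKO library than in every WT library, as were 14.6% of all genes. The median log2 fold change of the 10 was -0.66. Alb and Afp were lowest in DKO replicate 3 (17211 and 96775 normalized counts). Neutrophil genes summed to 2310 to 3010 CPM and 121 to 1020 (3 of 7 tested fell, Ly6g at 0 in all libraries). The dendritic list summed to 128 to 161 and 28.0 to 82.6 CPM (3 of 9 fell and 2 rose), the macrophage list to 54.7 to 75.0 and 15.0 to 36.2 CPM (1 of 8 fell, Cd163 at 0), and the lymphoid list to 38.2 to 49.9 and 12.4 to 27.4 CPM (1 of 6 fell). Endothelial genes (336 to 369 and 216 to 377 CPM, 2 of 10 fell) and megakaryocyte genes (1520 to 1850 and 1090 to 3020 CPM, 1 of 10 fell) overlapped between the genotypes. Macrophage, neutrophil, lymphoid and dendritic sums were thus lower in every DKO library than in every WT library, and their part in the results below was not tested. Each sum rested on few genes. In WT, Mpo (mean of 108147 normalized counts) made up most of the neutrophil sum and Csf1r (2196) most of the macrophage sum. Cd79b (1206) made up most of the lymphoid sum, and Irf8 (3237) with Flt3 (2320) most of the dendritic sum. Several other listed genes were near 0 in both genotypes, and the dendritic genes that rose were H2-Ab1 and Xcr1. In these bulk libraries, fewer cells of a type and less RNA per cell cannot be told apart.

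The 7 interferon-linked members did not move as a block. At an edgeR adjusted p under 0.05, 3 rose in DKO (Parp12, Parp14 and Parp10), 1 fell (Parp11) and 3 did not pass (Parp9, Dtx3l and Zc3hav1). Of all genes tested, 10.7% rose and 10.8% fell by this rule. With a log2 fold change of DKO over WT (log2FC) beyond 1 required as well, 1 member, Parp12, was called higher and 0 were called lower. Of all genes tested, 6.19% and 2.43% were called so. The study defines a differentially expressed gene by the same thresholds, but with p-values from DESeq2 in place of edgeR. A DESeq2 fit of these counts also called 1 member higher and 0 lower, and gave Parp9 an adjusted p of 0.0283. Every DKO library lay above every WT library for 4 of the 7 (Parp9, Parp10, Parp12 and Parp14), as for 13.6% of all genes. The median log2FC of the 7 was 0.71, against 0.03 over all genes tested. Parp1 fell in DKO, so in these libraries it was not a constant reference.

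**Figure D1:**
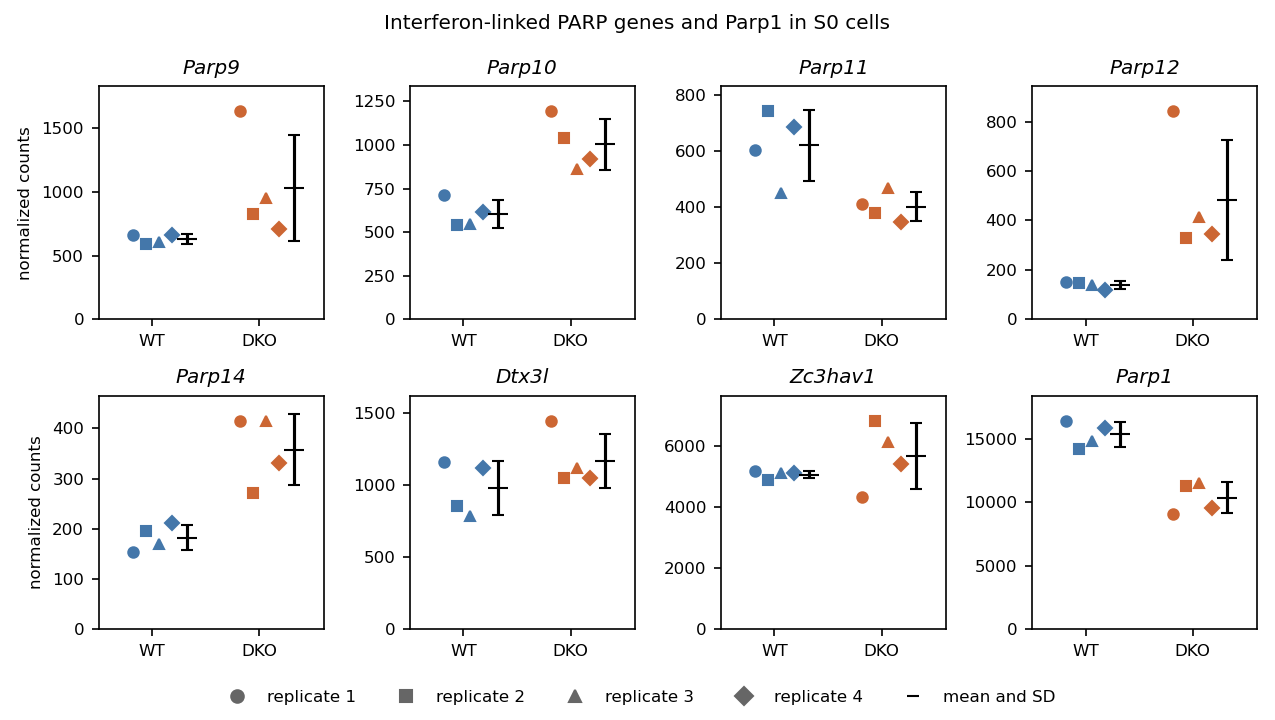
Normalized counts of the 8 genes on the vertical axes of 8 panels, with WT (blue) and DKO (orange) on the horizontal axes. Symbols are single libraries by replicate number and the bars are mean and SD (n = 4); DKO replicate 1 is the highest library for Parp9, Parp10, Parp12 and Dtx3l and the lowest for Zc3hav1, and all 4 DKO libraries lie below WT for Parp1.

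Parp12, a mono-ADP-ribosyltransferase with ZAP-like zinc fingers (ENSMUSG00000038507.6, minus strand of chromosome 6, 39086410 to 39118349 of GRCm38), showed the largest change of the 8. WT replicates 1 to 4 had 152, 147, 139 and 117 normalized counts, and DKO replicates 1 to 4 had 843, 330, 413 and 347. The lowest DKO library was thus well above the highest WT library, and DKO replicate 1 stood apart from the other 3. The difference was 3.48-fold (log2FC = 1.80, SE = 0.33, adjusted p = 0.00687 by edgeR), and the exact two-sided permutation test gave the smallest p that 4 against 4 libraries allow (p = 0.0286). Without DKO replicate 1 the log2FC was 1.39 (edgeR adjusted p = 0.00305). DKO replicate 3 alone, as a value with no test, gave 1.55.

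Parp14, a macrodomain protein that also acts as a cofactor of STAT6 (ENSMUSG00000034422.14, minus strand of chromosome 16, 35832874 to 35871544), was the least abundant member for its length. Its normalized counts were 154, 196, 169 and 211 in WT and 415, 271, 415 and 331 in DKO. DKO replicates 1 and 3 were nearly equal and no library overlapped (exact permutation test, p = 0.0286). The difference was 1.96-fold (log2FC = 0.97, SE = 0.23, adjusted p = 0.0172 by edgeR), just short of the study's fold threshold. Without WT replicate 1 the adjusted p was 0.0599, and the log2FC was past the threshold without WT replicate 2 (1.01), WT replicate 4 (1.04), DKO replicate 2 (1.08) and DKO replicate 4 (1.01). DKO replicate 3 alone gave 1.17. A short annotated transcript, Gm49730, shares 110 exonic bases with Parp14.

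Parp10, a mono-ADP-ribosyltransferase (ENSMUSG00000063268.12, minus strand of chromosome 15, 76231174 to 76243441), also rose, from a higher level per length than Parp12 and Parp14. WT libraries had 715, 540, 548 and 613 normalized counts and DKO libraries 1195, 1039, 864 and 919. The groups did not overlap, and the DKO libraries were closer to each other than for Parp12. The difference was 1.66-fold (log2FC = 0.73, SE = 0.15, adjusted p = 0.0115 by edgeR, exact permutation p = 0.0286). Its adjusted p stayed under 0.05 with each library left out, at most 0.0413. DKO replicate 3, its lowest DKO value, alone gave a log2FC of 0.50. Parp10 shares 205 exonic bases with Plec on the same strand, where counts of the genes cannot be told apart.

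Parp9 and Dtx3l, whose products form the PARP9-DTX3L complex, differed in how far they separated the genotypes. Parp9 (ENSMUSG00000022906.15, plus strand of chromosome 16, 35938470 to 35972605) had 661, 589, 609 and 663 normalized counts in WT, against 1633, 822, 947 and 712 in DKO. No DKO library overlapped with WT (exact permutation p = 0.0286), but DKO replicate 1 was 1.97 times the mean of the other 3 DKO libraries. At a log2FC of 0.71 with an SE of 0.24, Parp9 did not pass (adjusted p = 0.0653 by edgeR). It was 0.39 without DKO replicate 1 (edgeR adjusted p = 0.0729), and without DKO replicate 4 it was 0.85 and passed (edgeR adjusted p = 0.0383). DKO replicate 3 alone gave 0.57.

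Dtx3l (ENSMUSG00000049502.16, minus strand, 35926511 to 35939151) had 1157, 851, 788 and 1116 normalized counts in WT, against 1444, 1051, 1117 and 1046 in DKO. WT replicates 1 and 4 lay within the DKO range, and DKO replicate 1 was again the highest. With a log2FC of 0.25 and an SE of 0.17, the genotypes were not separated (adjusted p = 0.315 by edgeR, exact permutation p = 0.257). The number of Dtx3l counts per Parp9 count was 1.75, 1.45, 1.29 and 1.68 in WT and 0.884, 1.28, 1.18 and 1.47 in DKO, a log2 difference of -0.37 that the exact permutation test did not separate (p = 0.114). These neighbours share 458 exonic bases on opposite strands, and whether the counting used strand is not given in the sources used here. Reads from the shared bases therefore cannot be told apart with certainty.

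Parp9, Dtx3l and Parp14 lie together on chromosome 16, and the genes within 200 kb of Parp9 were examined beside them. Of 7 other genes tested there, 0 passed both thresholds, while 3 rose (Fam162a, Hspbap1 and Ccdc58) and 1 fell (Kpna1, an importin) at an adjusted p under 0.05 alone. Over all genes tested, 6.19% rose and 2.43% fell past both thresholds, and 10.7% and 10.8% did at the adjusted p alone. The log2FC values were 0.69 for Fam162a, 0.46 for Hspbap1, 0.35 for Ccdc58 and -0.59 for Kpna1 (edgeR adjusted p = 0.0135, 0.0491, 0.0389 and 0.00981). The antisense transcript Gm15564, whose span overlaps 5854 bases of Parp9 without sharing an exon, ranged in normalized counts from 5582 to 6167 in WT, whereas DKO replicates 1 to 4 had 0, 18308, 20129 and 25855. Gm15564 was therefore at 0 in the library in which Parp9 was highest. Whether the counting of the overlapping genes moved reads between them in that library was not tested.

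**Figure D2:**
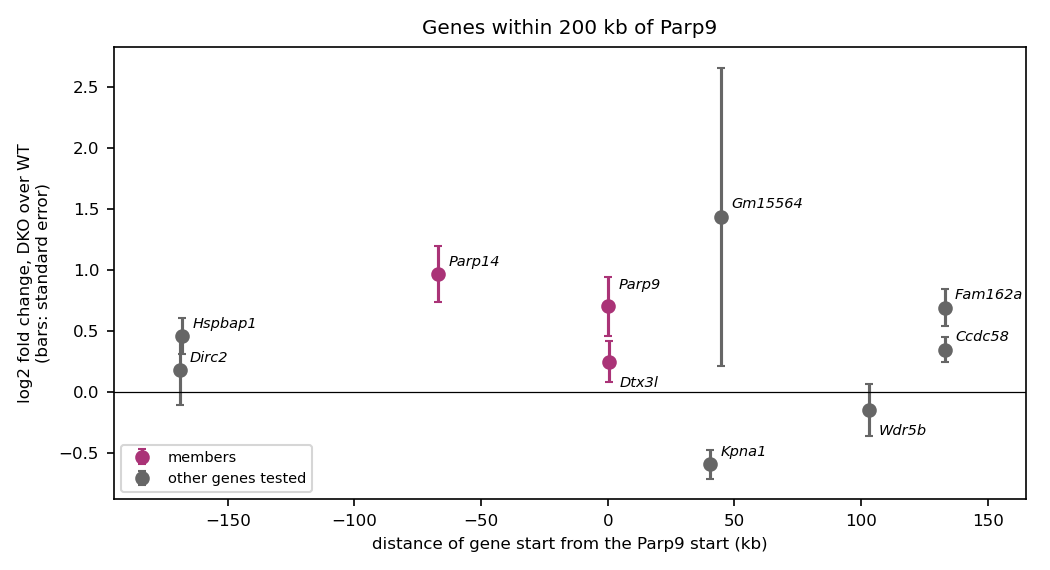
Log2FC of DKO over WT (vertical axis, bars are SEs) against the distance of each gene's start from the Parp9 start in kb (horizontal axis), for the 3 members (purple) and the 7 other genes tested within 200 kb (grey). Parp14 and Parp9 are at 0.97 and 0.71, Dtx3l at 0.25 and Kpna1 at -0.59; Gm15564 has the widest bar and was at 0 in DKO replicate 1.

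Zc3hav1, which encodes the antiviral protein ZAP (ENSMUSG00000029826.14, minus strand of chromosome 6, 38305286 to 38354603), was the most abundant of the 7 interferon-linked members and did not pass. Its normalized counts were 5168, 4882, 5109 and 5099 in WT and 4321, 6822, 6145 and 5421 in DKO. DKO replicate 1 was below every WT library and the other 3 were above all of them, unlike Parp12, Parp9 and Parp10, for which DKO replicate 1 was the highest. Its log2FC was 0.165 with an SE of 0.13 (adjusted p = 0.389 by edgeR, exact permutation p = 0.314). Without DKO replicate 1 it was 0.28 (edgeR adjusted p = 0.0469). The gene-level counts do not separate the long and short ZAP isoforms.

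Parp11, a mono-ADP-ribosyltransferase (ENSMUSG00000037997.12, plus strand of chromosome 6, 127446840 to 127494261), moved in the direction opposite to Parp12. It had 604, 742, 451 and 684 normalized counts in WT, against 410, 378, 469 and 347 in DKO. WT replicate 3 lay inside the DKO range, and all other WT libraries were above it. The difference was 0.646-fold (log2FC = -0.63, SE = 0.20, adjusted p = 0.0464 by edgeR, exact permutation p = 0.0571). With each library left out, the adjusted p was under 0.05 only without WT replicate 3 or DKO replicate 3 (0.0260 and 0.0400), and it was 0.104, 0.139 and 0.123 without WT replicates 1, 2 and 4 in turn, and 0.0555, 0.0859 and 0.0977 without DKO replicates 1, 2 and 4. DKO replicate 3 alone gave a log2FC of -0.42. Its distal promoter window is the one printed above with both motifs.

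Parp1, the main poly(ADP-ribose) polymerase of DNA repair (ENSMUSG00000026496.11, plus strand of chromosome 1, 180568924 to 180601254), fell in DKO. WT libraries had 16391, 14204, 14848 and 15863 normalized counts and DKO libraries 9054, 11235, 11524 and 9552. The highest DKO library was below the lowest WT library, and DKO replicates 1 and 4 were the lowest. The difference was 0.675-fold (log2FC = -0.57, SE = 0.10, adjusted p = 0.00565 by edgeR, exact permutation p = 0.0286). The log2FC lay between -0.62 and -0.51 with each library left out, and was -0.43 with DKO replicate 3 as the only DKO library. Every DKO library lay below every WT library for 14.6% of all genes.

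Because a ratio within a library does not depend on how libraries are scaled, each member was also divided by Parp1. Of the 7 ratios, 6 were higher in every DKO library than in every WT library, and Parp11 was not. Parp1 itself fell. The ratio to Parp1 was likewise higher in every DKO than in every WT library for 44.2% of the 17377 other genes tested. The ratio to Parp1 was 4.8-fold higher for Parp12, 2.89-fold for Parp14, 2.47-fold for Parp10, 2.30-fold for Parp9, 1.78-fold for Dtx3l and 1.64-fold for Zc3hav1 (exact permutation p = 0.0286 each, 0.0334 adjusted over the 7 comparisons). For Zc3hav1 the ratio was 0.315 to 0.344 in WT and 0.477 to 0.607 in DKO. The log2 difference was 0.72 for Zc3hav1 and 0.83 for Dtx3l, whose own levels overlapped between the genotypes, and the fall of Parp1 alone accounts for 0.57 of each. For Parp11 the log2 ratio differed by -0.04 (exact permutation p = 0.83), with an SD of 0.33 in WT and 0.19 in DKO, so a difference was not detectable at this spread.

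**Figure D3:**
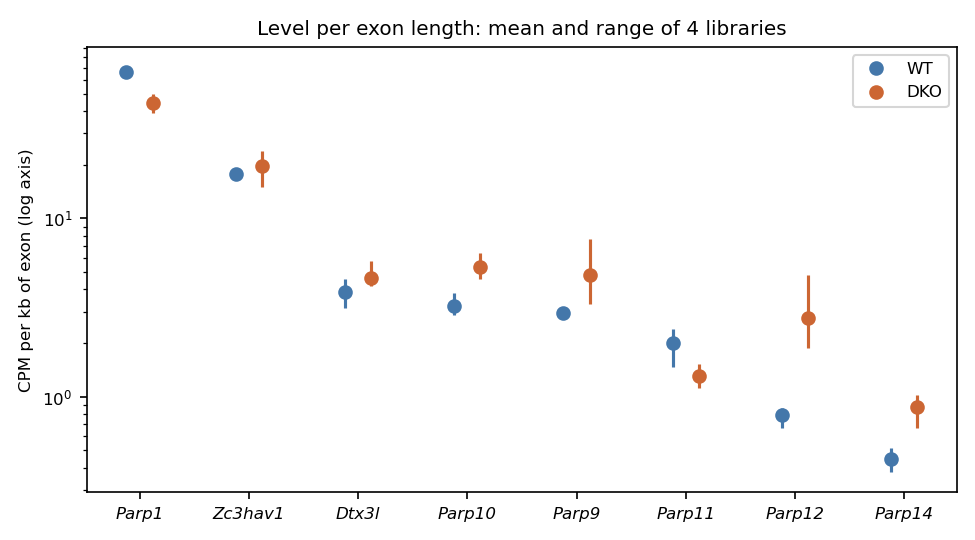
CPM per kb of exon on a log axis for the 8 genes, in the order of their WT levels, with WT in blue and DKO in orange. Points are means and lines the range of 4 libraries; Parp1 falls from 65.9 to 44.5 and Parp12 rises from 0.79 to 2.75, passing Parp11.

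Levels were compared between genes per kb of annotated exon. In WT, Parp1 had 65.9 ± 4.24 CPM per kb and Zc3hav1 17.7 ± 0.44 (SD, n = 4 each), and both stood apart from the rest. The range of Parp10 (3.22 ± 0.43) overlapped with those of Dtx3l (3.89 ± 0.74) and Parp9 (2.95 ± 0.17), while every Dtx3l library was above every Parp9 library. They were followed by Parp11 (2.01 ± 0.41), Parp12 (0.79 ± 0.09) and Parp14 (0.45 ± 0.06), whose ranges did not overlap. In DKO the order below Zc3hav1 changed, as shown in the plot of levels per exon length. Parp10 had 5.35 ± 0.78, Parp9 4.81 ± 1.94 and Dtx3l 4.63 ± 0.75 CPM per kb, with ranges that all overlapped. Parp12, at 2.75 ± 1.38, lay above Parp11 at 1.3 ± 0.17 in every DKO library, the reverse of WT, and Parp14 reached 0.88 ± 0.17. The coefficient of variation between DKO libraries was 50.2% for Parp12 and 40.3% for Parp9, against 11.1% and 5.91% in WT.

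The other PARP genes, which are not thought of as an interferon-linked set, were compared in the same fit. Of 9 tested, 0 rose and 2 fell at an adjusted p under 0.05, and the median log2FC was -0.10. Among all genes tested, 10.7% rose and 10.8% fell at this threshold. Parp8 had 1297 ± 286 normalized counts in WT (SD, n = 4) and 613 ± 110 in DKO, with a log2FC of -1.08 (adjusted p = 0.00619 by edgeR). Parp16, an enzyme anchored in the endoplasmic reticulum membrane, fell from 476 ± 53.5 to 307 ± 50.0 (log2FC -0.63, edgeR adjusted p = 0.0405). Parp2, the close relative of Parp1, had a log2FC of -0.10 (SE 0.09, edgeR adjusted p = 0.437).

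**Figure D4:**
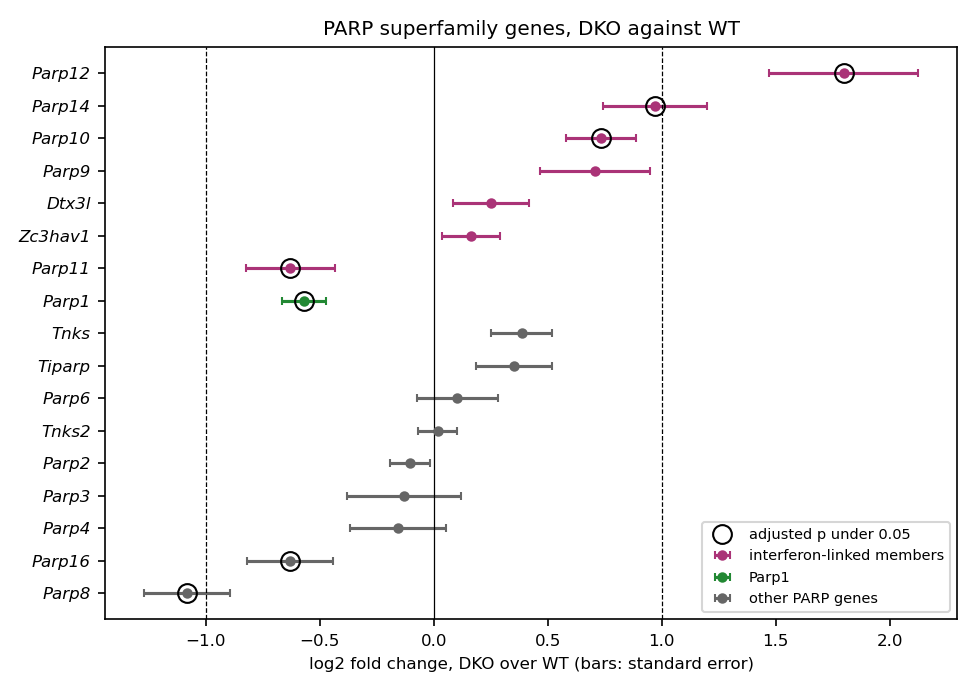
Log2FC of DKO over WT (horizontal axis, bars are SEs, dashed lines at -1 and 1) for the 7 interferon-linked members (purple), Parp1 (green) and 9 other PARP genes (grey), 1 gene per row. Circles mark an adjusted p under 0.05; Parp12 at 1.80 is the only gene right of 1 and Parp8 at -1.08 the only gene left of -1.

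Genes that work with these enzymes mostly did not pass an adjusted p of 0.05. At that threshold, 10.7% of all genes tested rose and 10.8% fell. Of 8 tested genes for removal of ADP-ribose, 1 fell, Parg, the main poly(ADP-ribose) glycohydrolase, with a log2FC of -0.51 (edgeR adjusted p = 0.0316), and 0 rose. Of 8 repair partners of PARP1, 1 fell, Lig3, the DNA ligase of single-strand break repair, which had 3577 ± 331 normalized counts in WT (SD, n = 4) and 1736 ± 471 in DKO (log2FC = -1.04, adjusted p = 0.00531 by edgeR). Xrcc1, the scaffold that binds LIG3, had a log2FC of -0.10 (edgeR adjusted p = 0.365). Neither the 5 ZAP partners and relatives, Trim25 and Khnyn among them, nor the 9 genes of NAD+ supply had a member that passed by edgeR. Khnyn (log2FC -0.57), Qprt (-0.71), Nmnat2 (1.58) and Nampt (0.31) had an edgeR p under 0.05 only before adjustment. The shares of all genes by that looser rule were not counted, and cannot be smaller than the 10.7% and 10.8% above. Of the 4 other Deltex ligases, Dtx3 rose (log2FC 0.56, edgeR adjusted p = 0.0324) and Dtx2 fell (-0.58, edgeR adjusted p = 0.00973). Dtx1 had the largest log2FC of the 4 but did not pass (3.55, SE 1.29, edgeR adjusted p = 0.0776). It had 0 to 31.3 normalized counts in WT and 33.7 to 170 in DKO. Dtx4 did not pass either (log2FC -0.135, edgeR adjusted p = 0.819).

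The transcription factors and feedback genes of interferon signalling were compared as the known regulators of this family. Of 5 tested, 3 rose at an adjusted p under 0.05 and 2 of them, Irf7 and Usp18, also passed the fold threshold. The shares of all genes tested that rose by these rules were 10.7% and 6.19%. Irf7 had 98.1 to 404 normalized counts in WT, against 1021 to 3815 in DKO, which is a log2FC of 3.34 with an SE of 0.56 (adjusted p = 0.00531 by edgeR), and Irf9, the DNA-binding part of ISGF3, rose by 0.97 (edgeR adjusted p = 0.0052). Stat2 and Irf1 did not pass (log2FC values -0.14 and -0.74, edgeR adjusted p = 0.508 and 0.0546). DKO replicate 1 was the highest library for Irf7, Irf9 and Usp18, as it was for Parp12, Parp9, Parp10 and Dtx3l, and WT replicate 1 was the highest WT library for the same 3 signalling genes.

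The median profile of the 7 interferon-linked members, as log2 CPM relative to the WT mean, was 0.99, 0.43, 0.53 and 0.18 in DKO replicates 1 to 4. Of 12614 protein-coding genes outside the family with at least 1 CPM, the 5 whose profile over the 8 libraries lay closest were Tsen34, Zfp329, Ddah2, Micu3 and H2-T23, with root mean square differences of 0.0936 to 0.110 on the log2 scale. Of these, H2-T23, a non-classical MHC class I gene, passed an adjusted p of 0.05 (log2FC 0.63, edgeR adjusted p = 0.0154), and the other 4 had log2FC values of 0.48 to 0.65 with adjusted p-values of 0.0682 to 0.0962. The 5 genes were picked for a profile that is high in DKO, so their positive log2FC values follow from the picking. Their p-values are no separate evidence. This likeness describes 8 libraries and a median over members that moved in different directions.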

How the data were processed

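RNAseq counts of S0 cells from 4 WT and 4 DKO libraries were analysed. Per the submitters' processing notes and methods, the authors trimmed reads with fastp 0.21.0, mapped them to mm10 with HISAT2 2.2.1, filtered alignments on quality, and took gene counts from StringTie 1.3.3b and its script for count tables. The deposited values are whole-number counts, neither normalized nor pooled. Groups and replicate numbers came from the sample titles, and count columns were matched by library name. Symbols, coordinates and exon lengths came from GENCODE M21 (GRCm38, the mm10 build), which matched 52489 of 52636 identifiers without the version.

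Counts were tested with edgeR 4.0.16 in R 4.3.3 (filterByExpr, TMM, robust quasi-likelihood test, Benjamini-Hochberg adjustment over 17378 genes). Single values used exact two-sided permutation tests over 70 arrangements of log2 CPM or log2 ratios with a prior of 0.5 counts. Normalized counts were scaled to the mean TMM-adjusted library total. On simulated counts of 17154 genes for this comparison, 191 of 200 genes changed 4-fold were called in the right direction, and 8 of 16954 unchanged genes were called. Both simulated genotypes had the same common dispersion, and the changed genes were drawn from the more abundant ones. Every member changed by less than 4-fold, so the recovery does not give the sensitivity for the members. No library was a copy of another. Chi-square per gene between libraries of a genotype was 18.3 to 41.6 in WT and 55.7 to 128 in DKO, a spread that the simulation did not copy. As a mean over genes, the spread between libraries was thus larger than counting error alone would give. The share of counting error was not worked out for single members, such as Parp12 with 117 to 152 normalized counts in WT.

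The members and gene lists were chosen with earlier results of these data known. The genes named were the 8 members, the listed genes, those within 200 kb of Parp9, and the 5 closest in profile. Alternatives were DESeq2 1.42.0, other scalings, filters, gene sets and pseudocounts, a replicate block, each library left out, and DKO replicate 3 alone. A gene of the interferon signalling list is not reported here.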

Additional observations from a re-analysis of the deposited data

How the results depend on the processing

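The direction of all 8 members was kept in every fit across all genes that was tried (DESeq2, other scalings and filters, protein-coding genes only, the replicate block, each library left out, DKO replicate 3 alone). Of the 15 fits with more than 1 DKO library, Parp12, Parp1 and Parp10 had an adjusted p under 0.05 in 15, Parp14 in 13, Parp9 and Parp11 in 5 each, Zc3hav1 in 1 and Dtx3l in 0. The number of interferon-linked members called higher was 2 in place of 1 with upper-quartile scaling and with protein-coding genes only, since Parp14 then passed the fold threshold. It was between 1 and 2 with each library left out. Without a fold threshold, 3 members were higher and 1 lower, and 1867 and 1878 of all genes. Upper-quartile scaling moved the median of all genes by 0.108 on the log2 scale, and Parp14 with it.

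Over all genes, DESeq2 called 1653 higher in place of 1076. With each library left out, 566 to 1148 were called higher and 243 to 521 lower. DKO replicate 3 alone, with its spread taken from the WT libraries, gave 590 higher and 1143 lower. The cause was not tested. No pairing by replicate number was seen, as same-numbered libraries had correlations of deviations from -0.07 to 0.04. Whether libraries shared a litter or batch was not tested. With the replicate block, 613 genes were called higher, and adjusted p-values were 0.0701 for Parp14 and 0.133 for Parp11. The paired exact test of the ratios was not run because 4 pairs allow no p below 0.125.

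With each library left out, the difference in log2 CPM lay between 0.38 and 0.78 for Parp9, -0.76 and -0.52 for Parp11, 0.88 and 1.09 for Parp14, and 0.05 and 0.27 for Zc3hav1, and the exact test missed 0.05 in 4 of 8 of these for Parp9, in 1 for Parp14 and in 7 each for Parp11 and Zc3hav1. The Parp11 ratio to Parp1 lay between -0.17 and 0.09, and turned positive without WT replicate 2 (0.09) or DKO replicate 2 (0.03).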
